A study of Mus musculus with 24 samples.

Results

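The genes described here mark endothelial cells in most vessels: Cdh5, Pecam1, Clec14a, Egfl7, Cd34, Erg, Fli1, Emcn, Cd93 and Ramp2. They were taken by gene symbol, 10 of the 45468 genes in each count table, so no measured value of these tables enters the rule. The symbols themselves were chosen with earlier results of these data known. The RNA came from the endothelial fraction of mouse brain, isolated as cells that were negative for CD45 and bound to CD31 beads. CD31 is the protein product of Pecam1, a gene of the set. The samples formed 8 groups of 3 libraries, described by the labels as independent biological replicates, from 2 genotypes at 4 stages. The stages were embryonic (E15.5), postnatal days 5 and 9 (P5 and P9) and adult. The study asked how the transcription factor Sox17 and Wnt signalling shape the permeability of the blood-brain barrier.

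All mice carried floxed Sox17 alleles on both chromosomes and were given tamoxifen. The mice called wt had the genotype Sox17flox/flox/Cdh5(PAC)-Cre-ERT2-, without the recombinase. The Sox17iECKO mice, called KO here, had the genotype Sox17flox/flox/Cdh5(PAC)-Cre-ERT2+, in which a Cdh5 regulatory region on an artificial chromosome drives a tamoxifen-activated Cre in endothelial cells. KO mice therefore differed from wt mice in carrying the transgene as well as in the deletion. For E15.5, dams received 2 injections of 1 mg on days 11.5 and 13.5 after mating. P5 and P9 pups received 100 µg at postnatal day 1. Adults were treated from 6 weeks of age with 4 injections of 1.5 mg and were collected 1 week after them. Embryonic and P5 brains were dissociated with one kit, and P9 and adult brains with another. Schedule, age, and in part the kit, cannot be told apart from stage.

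As background, the set spans the main functions that make a cell endothelial. VE-cadherin (Cdh5) and CD31 (Pecam1) hold neighbouring cells together, and the ETS factors ERG and FLI1 bind GGAA-containing sites in the regulatory regions of many endothelial genes. CLEC14A and CD93 are transmembrane lectins of the group XIV family that bind the matrix protein multimerin 2 (Mmrn2). CD34 and endomucin (Emcn) are sialomucins of the vessel surface, EGFL7 is secreted into the matrix around endothelial cells, and RAMP2 pairs with the receptor Calcrl to form the adrenomedullin receptor.

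The 2 genes that moved furthest in opposite directions in KO mice at P9, Clec14a and Cd34, are shown first by the sequence before their start sites, and Egfl7 by the microRNA that lies within it. RefSeq windows (build GRCm38.p6) were held for 5 of the 10 genes, Clec14a, Egfl7, Cd34, Erg and Emcn, and not for Cdh5, Pecam1, Fli1, Cd93 and Ramp2. The Clec14a stretch is chr12:58269309-58269508 on the minus strand and the Cd34 stretch is chr1:194938571-194938770 on the plus strand. Each runs from 250 to 51 bases before the start site, 5′ to 3′, with the ETS core GGAA, or TTCC where it lies on the other strand, in capitals.
Clec14a: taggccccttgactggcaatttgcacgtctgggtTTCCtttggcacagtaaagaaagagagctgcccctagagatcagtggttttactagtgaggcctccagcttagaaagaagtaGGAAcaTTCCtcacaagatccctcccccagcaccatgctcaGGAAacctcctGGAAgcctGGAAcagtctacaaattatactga
Cd34: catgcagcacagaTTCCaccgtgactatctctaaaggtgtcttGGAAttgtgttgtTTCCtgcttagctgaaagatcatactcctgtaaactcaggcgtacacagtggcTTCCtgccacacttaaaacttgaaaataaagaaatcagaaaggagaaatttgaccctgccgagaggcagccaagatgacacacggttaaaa
Between these positions Clec14a held 6 GGAA cores and Cd34 held 4, and neither held the SOX sequence AACAAT. On either strand GGAA was in 8 of the 9 windows of 250 bases that the 5 genes had, and in 93.4% of all 32851 windows of that length. The longer AGGAAG, which contains GGAA, was in 5 of the 9 and in 29.5% of all. AACAAT was in 2 of the 9 and 9.42% of all, and AGATAA, bound by GATA factors, in 1 of the 9 and 9.99% of all. These matches describe letters only.
The mature sequence of mmu-miR-126a-3p, at chr2:26591402-26591423 on the plus strand of the same build, is given with its seed, bases 2 to 8, in capitals.
mmu-miR-126a-3p: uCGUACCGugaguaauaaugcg
Its hairpin lies inside the span of 9 annotated Egfl7 transcripts, of which 1 has an exon over the hairpin. The gene entry for this microRNA had 0 counts in all 24 libraries, and the level of the mature microRNA was not tested. The Egfl7 values below are those of the host gene's own row.

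Library totals ranged from 12301779 to 19830600 counts. Levels are CPM, counts brought to a common library total, with library sizes scaled by TMM, a method that assumes most genes do not change. In a single library a count of 0 would allow up to 0.134 to 0.252 CPM (3 counts, counting error only). The lowest member count in any library was 562, so all 10 genes passed the filter on low counts. Sox17 fell in KO at every stage, with means of 9.13 CPM (E15.5), 16.7 (P5), 23.4 (P9) and 52.6 (adult) in KO against 90.5, 277, 333 and 296 in wt (edgeR quasi-likelihood test, adjusted p at most 8.62e-06), and 22.5 to 78.1 CPM remained in the adult KO libraries. The floxed exons are not given in the sources used here. Both E15.5 libraries numbered 3 stood apart in their summed pericyte markers, at 692 CPM in wt and 817 in KO against 1510 to 2108 in the other 4. In wt libraries the 10 genes summed to 2060 to 2524 CPM (E15.5), 5895 to 6786 (P5), 6785 to 7067 (P9) and 4205 to 4548 (adult). Fewer endothelial cells and less endothelial RNA per cell cannot be told apart in such bulk samples.

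Compared between genes on the deposited length-scaled values (TPM), the 10 genes formed a wide ladder. Cdh5 was the most abundant, with a mean of 765 TPM over the 24 libraries, followed by Egfl7 at 574, Pecam1 at 539 and Ramp2 at 529. Cd93 at 398, Cd34 at 325 and Erg at 235 came next, and Clec14a at 137, Fli1 at 104 and Emcn at 93.6 TPM formed the low end. Some positions were steady: Cdh5 ranked 1 in every E15.5, P5 and wt P9 library, and Erg ranked 7 in all groups except wt adults, where it was 6 or 7. Clec14a and Egfl7 moved over the most positions, from 5 to 10 and from 1 to 6. Clec14a ranked 9 in each wt P9 library and 5 or 6 in each KO P9 library. Egfl7 ranked 2 to 5 in wt P9 libraries and 1 in KO P9 and wt adult libraries. Emcn was last in wt P5 and P9 libraries and 8 in adults.

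**Figure D1:**
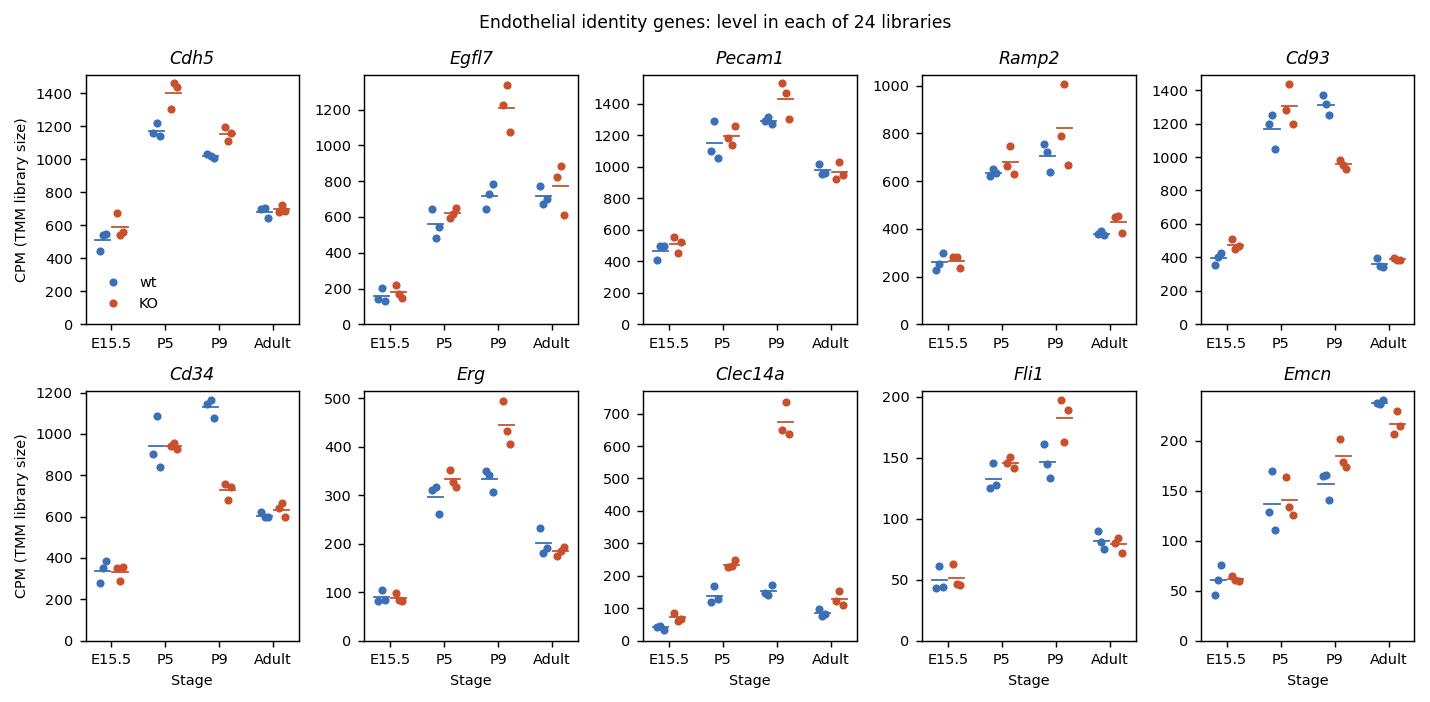
Level of each gene (CPM, vertical axis from 0, scale set per gene) in each of 24 libraries, by stage, with wt in blue and KO in red; bars are means of 3 libraries. Clec14a is above wt in each KO library at all 4 stages, Cd34 and Cd93 are below wt in each KO library at P9 only, and most wt levels are highest at P5 or P9.

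The first question was how these genes change as the wt brain vasculature matures. Between E15.5 and P5 all 10 rose, by 1.17 to 1.80 on the log2 scale, when libraries were scaled by TMM; scaled instead to 24 other pan-endothelial genes, they moved by -0.43 to 0.24, with 0 called higher and 4 called lower. Over all 17159 genes tested, 66.6% were called, that is with an adjusted p under 0.05 in the edgeR quasi-likelihood test, 36.2% higher and 30.4% lower. The second scaling moved the median of all genes from 0.09 to -1.48. Relative to that median the 10 genes stood 1.07 to 1.70 higher under TMM and 1.06 to 1.72 higher under the other scaling. Such a match was fixed in advance, because a change of scaling shifts all genes of a comparison by nearly the same amount. The other 24 pan-endothelial genes gave 23 higher and 1 lower under TMM, with a median of 1.73, against a median of 1.45 for the 10.

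The rise was largest for Egfl7, Clec14a and Erg. Egfl7 had 143, 206 and 132 CPM in the wt E15.5 libraries and 647, 483 and 545 at P5, a log2 change of 1.80 ± 0.17 (SE, adjusted p = 4.75e-09). Erg had 81.2, 104 and 83.7 CPM at E15.5 and 312, 317 and 262 at P5 (1.73 ± 0.12, adjusted p = 2.58e-11). Both genes had every P5 library above every E15.5 library. Clec14a rose by 1.78 ± 0.15 (adjusted p = 1.13e-09), Cd93 by 1.57 ± 0.10 (8.45e-12), Cd34 by 1.48 ± 0.11 (2.3e-10) and Fli1 by 1.42 ± 0.13 (3.01e-09). Pecam1, Ramp2, Cdh5 and Emcn rose least, by 1.30, 1.29, 1.20 and 1.17. Without both E15.5 libraries numbered 3, all 10 were still called higher, by 1.26 to 1.69. Neuron markers moved the other way over the same step: 6 of 6 fell, and their summed level was 1391 to 1720 CPM in wt at E15.5 and 179 to 285 at P5, with none at 0. Pericyte markers rose, 8 of 8, from a sum of 692 to 2108 CPM to 4185 to 5485. Smooth muscle (5 of 5 tested), oligodendrocyte (6 of 6), astrocyte (6 of 7) and microglial markers (6 of 7) also rose, and red cell (5 of 6) and platelet markers (5 of 6) fell. Of 6 fibroblast markers 2 rose, of 6 neural progenitor markers 2 rose and 3 fell, of 4 tested markers of other leukocytes 2 rose, and of 4 lymphatic markers 1 rose and 2 fell. The part of these cells in the rise of the endothelial genes was not tested.

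Between P5 and P9 in wt none of the 10 was called by edgeR, where 5.12% of all genes were (2.67% higher and 2.45% lower), with log2 changes of -0.20 to 0.37. At an unadjusted p under 0.05 there were 2, Egfl7 (0.37 ± 0.17, adjusted p = 0.223) and Cd34 (0.26 ± 0.11, adjusted p = 0.201), and DESeq2 and robust limma-trend also called none. Cdh5 was lower at P9 in each library, at 1034, 1022 and 1010 CPM against 1160, 1221 and 1140 at P5 (-0.20 ± 0.10, adjusted p = 0.258). This step also changed the dissociation kit.

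From P9 to adult the genes parted. Scaled by TMM, 8 were lower in wt adults, Emcn was higher and Egfl7 was not called, against 61.1% of all genes called, 30.3% lower and 30.8% higher. Cd93 fell furthest, from 1368, 1319 and 1252 CPM at P9 to 395, 350 and 342 in adults (log2 -1.86 ± 0.10, adjusted p = 3.04e-13), so that every adult library lay far below every P9 library. Emcn went from 165, 166 and 140.2 CPM to 238, 236 and 240.1 (0.60 ± 0.15, adjusted p = 0.00112). These endomucin levels in adults were the highest of the 8 groups.

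Egfl7 was not called, with 644, 730.2 and 784 CPM at P9 and 775, 674 and 703 in adults (-0.0047 ± 0.17, adjusted p = 0.984). The other falls were -0.90 for Cd34, -0.89 for Ramp2, -0.84 for Fli1 and Clec14a, -0.73 for Erg, -0.58 for Cdh5 and -0.40 for Pecam1, with adjusted p from 4.67e-07 to 0.00215. With scaling to the 24 other pan-endothelial genes, under which the median of all genes moved to 0.42, Cdh5 (-0.18, adjusted p = 0.0837) and Pecam1 (-0.0034, adjusted p = 0.977) were no longer called and Egfl7 was called higher (0.40, adjusted p = 0.0245). Oligodendrocyte markers moved over the same step. All 6 rose, and their sum went from 1015 to 1869 CPM at P9 to 20270 to 24500 in wt adults. Pericyte markers fell, 8 of 8, from 2866 to 3912 CPM to 542 to 664. Microglial (6 of 7) and most astrocyte markers (5 of 7) also rose, fibroblast markers (5 of 6) fell, and 3 of the 5 smooth muscle markers tested rose and 2 fell. No marker of the oligodendrocyte or pericyte list was at 0 in these groups, and their part in the fall of the endothelial genes was not tested.

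Across the whole course, from E15.5 to adult, 9 of the 10 were higher in wt adults under TMM, where 69.6% of all genes were called, 35.2% higher and 34.3% lower. Egfl7 (2.16 ± 0.17, adjusted p = 1.63e-10) and Emcn (1.97 ± 0.15, 6.72e-11) gained most, followed by Erg at 1.17, Clec14a at 1.08, Pecam1 at 1.07, Cd34 at 0.84, Fli1 at 0.73, Ramp2 at 0.55 and Cdh5 at 0.42. Cd93 was not called, at 362 ± 28.5 CPM (SD, n = 3) against 394 ± 38.3 (log2 -0.12 ± 0.10, adjusted p = 0.286). Scaled to the 24 other pan-endothelial genes, which put the median of all genes at -1.18, Egfl7 (0.98) and Emcn (0.80) remained higher, 5 genes were called lower, and Cd93 was among them at -1.31 (adjusted p = 1.32e-11). Relative to the median of all genes, the members lay between -0.12 and 2.16 under TMM and between -0.13 and 2.16 under the other scaling. This match, too, was fixed in advance by the way scaling works.

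**Figure D2:**
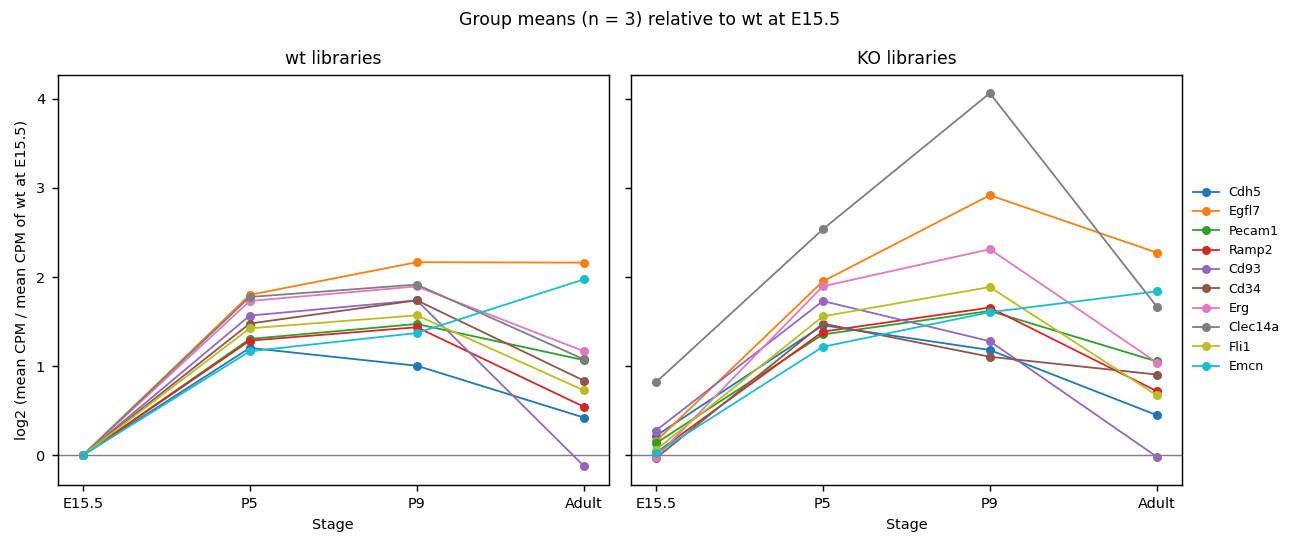
Mean level of each gene (n = 3) as log2 of the ratio to wt at E15.5, on CPM scaled by TMM, for wt (left) and KO (right); stages are evenly spaced and not to time. In wt all 10 lines rise to P5, which is not so with scaling to other endothelial genes, and spread in adults from Cd93 at -0.12 to Egfl7 at 2.16; in KO the Clec14a line peaks at P9.

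**Figure D3:**
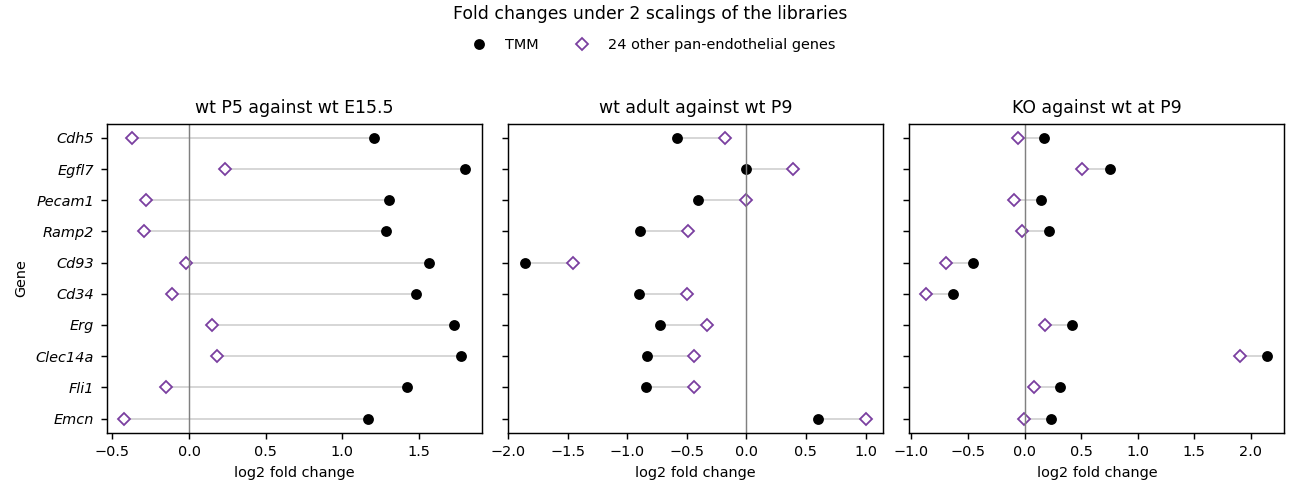
Log2 fold change of each gene (horizontal axis) in 3 comparisons with TMM scaling (filled circles) and with scaling to 24 other pan-endothelial genes (open diamonds). The step from E15.5 to P5 loses its common direction under the second scaling, while at P9 Clec14a and Egfl7 stay above 0 and Cd34 and Cd93 below it in KO.

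The second question was how the same genes differed between KO and wt mice, and the answer differed by gene and by stage. The deletion of Sox17 and the transgene cannot be told apart in this comparison, which is what KO effect means below. Of the 10, 1 was called at E15.5 (0.548% of all genes were), 1 at P5 (0.53%), 5 at P9 (28%) and 0 in adults (0.0874%, of which 0.0291% higher and 0.0583% lower). The gene called at E15.5 and P5 was Clec14a, higher in KO, as were 0.42% and 0.396% of all genes, while 0.128% and 0.134% were lower. At P9 Clec14a, Egfl7 and Erg were higher (13.5% of all genes were) and Cd34 and Cd93 lower (14.6%). The median log2 change of the 10 was 0.10, 0.14, 0.23 and 0.05 at the 4 stages in that order, where that of all genes lay within 0.02 of 0.

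**Figure D4:**
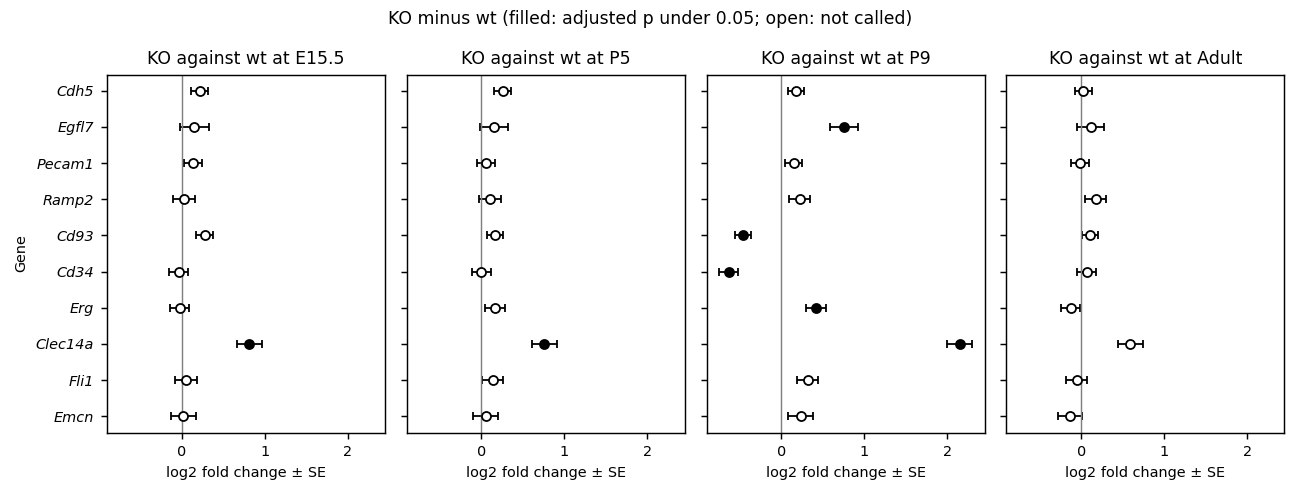
Log2 fold change of KO against wt (± SE, edgeR, TMM scaling) for each gene at each stage; filled points have an adjusted p under 0.05. Clec14a stands at 0.82, 0.76, 2.15 and 0.59 from E15.5 to adult, and the other 9 genes lie between -0.63 and 0.75.

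The endothelial lectins, Clec14a and Cd93, moved in opposite directions at P9. Clec14a (ENSMUSG00000045930, mm10 chromosome 12, 58264720 to 58269258, minus strand) encodes a lectin of endothelial cell contacts. At E15.5 its wt libraries had 41.2, 46.3 and 33.7 CPM and its KO libraries 85.9, 60.6 and 67.0, a log2 difference of 0.82 ± 0.15 (SE, adjusted p = 0.0085). At P5 the wt values were 118, 169 and 128 CPM and the KO values 227, 229 and 247 (0.76 ± 0.15, adjusted p = 0.0144). At both stages each KO library lay above all wt libraries.

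At P9 the Clec14a difference was largest: 147, 140.1 and 170.1 CPM in wt against 651, 736 and 637 in KO, a 4.43-fold higher mean (log2 2.15 ± 0.15, adjusted p = 4.48e-10). In adults the wt libraries had 96.6, 76.5 and 82.6 CPM and the KO libraries 123, 152 and 109.6, again without overlap, but the difference was not called (0.59 ± 0.15, adjusted p = 0.308). Ordered by level, KO P9 stood above KO P5, which stood above wt P9. Next came wt P9, wt P5 and adult KO, which all overlapped each other. Adult wt lay below these and overlapped KO E15.5, and wt E15.5 was lowest.

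The calls at the earlier stages rested on few libraries. The E15.5 call was lost without wt replicate 3 (0.70, adjusted p = 0.0808), without KO replicate 1 (0.66, 0.0884), without both libraries numbered 3 (0.74, 0.124) and in a fit of the 6 E15.5 libraries alone (0.81, 0.206). The P5 call was lost without wt replicate 1 (0.66, 0.156), wt replicate 3 (0.70, 0.119), KO replicate 1 (0.78, 0.0525) or KO replicate 3 (0.72, 0.076). The P9 value stayed between 2.07 and 2.24 over the 6 left-out libraries, with an adjusted p of at most 2.86e-08.

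Cd93 (ENSMUSG00000027435, chromosome 2, 148436640 to 148443563, minus strand), a receptor for multimerin 2, had 1368, 1319 and 1252 CPM in wt at P9 and 983, 953 and 930.3 in KO, with every KO library lower (-0.46 ± 0.10, adjusted p = 0.00107). At E15.5 its libraries were also apart but the other way round, at 352, 401 and 428 CPM in wt and 509, 452 and 470 in KO (0.28 ± 0.10, adjusted p = 0.536), which did not pass the test. Its shared ligand Mmrn2 fell at P9 as well, from 326 ± 16.2 to 236 ± 30.3 CPM (SD, n = 3; -0.47 ± 0.13, adjusted p = 0.00754). Mmrn1, which encodes the related multimerin 1, rose at P9 (1.64, adjusted p = 1.29e-07) and at E15.5 (0.76, 0.0347). Of the remaining family, Cd248, a lectin found on pericytes, fell at P9 (-1.64, adjusted p = 0.00299), and which cells of the fraction carried it was not tested. Thbd, thrombomodulin, had 116 ± 6.88 CPM in wt and 106 ± 19.5 in KO (-0.14, adjusted p = 0.433). Over these 4 genes of the lectin and multimerin families 1 was called higher and 2 lower at P9, where 28% of all genes were called.

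Egfl7 (ENSMUSG00000026921, chromosome 2, 26580014 to 26593120, plus strand) had 644, 730.2 and 784 CPM in wt P9 libraries and 1225, 1336 and 1073 in KO P9 libraries. The KO mean was 1.68-fold higher and the groups did not overlap (log2 0.75 ± 0.17, adjusted p = 0.00161). At the other 3 stages the Egfl7 libraries of the genotypes overlapped, with log2 differences of 0.16, 0.15 and 0.11.

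The ETS factors both stood higher in KO at P9, and only Erg was called. Erg (ENSMUSG00000040732, chromosome 16, 95359169 to 95586593, minus strand) had 350.4, 341 and 306 CPM in wt and 495, 432 and 405 in KO (0.42 ± 0.12, adjusted p = 0.00885). Each KO library lay above all wt libraries. The call was lost without wt replicate 3 (0.36, adjusted p = 0.0506) or KO replicate 1 (0.32, 0.069), and with scaling to the 24 other pan-endothelial genes (0.18, 0.192). Fli1 (ENSMUSG00000016087, chromosome 9, 32422204 to 32542861, minus strand) had 162, 145 and 134 CPM in wt and 197, 162 and 189 in KO, again apart (0.32 ± 0.13, adjusted p = 0.0707). Fli1 was called without KO replicate 2 (0.38, adjusted p = 0.0413) and in the DESeq2 test (0.38, 0.0239). At P5 Erg was slightly apart, at 312, 317 and 262 CPM in wt and 353, 328 and 318 in KO (0.16 ± 0.12, adjusted p = 0.798).

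Among 15 other ETS factors 3 rose and 1 fell in KO at P9, a share close to the 28% of all genes called there. Ets2 rose from 188 ± 12.1 to 338 ± 56.4 CPM (0.85, adjusted p = 1e-05) and Elk4 from 66.9 ± 3.49 to 110.0 ± 5.91 (0.72, 3.1e-05), and Ets1, an ETS factor with high endothelial expression, fell by 0.48 (adjusted p = 0.00332). Among a further list of 10 transcription factors 2 rose and 2 fell, where 13.5% of all genes rose and 14.6% fell. Gata2 rose from 98.5 ± 9.46 to 260.3 ± 21.1 CPM (1.40, adjusted p = 2.97e-10), while Lmo2, a bridging partner of GATA and TAL factors, fell from 466 ± 11.3 to 229 ± 32.7 (-1.02, 2.89e-06). Heyl fell by 1.13 (adjusted p = 0.0165), and which cells of the fraction carried it was not tested.

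The sialomucins were unlike each other. Cd34 (ENSMUSG00000016494, chromosome 1, 194938819 to 194961279, plus strand) had 1147, 1165 and 1077 CPM in wt at P9 and 759, 680 and 745 in KO, so that the mean dropped by 35.6% with no overlap (log2 -0.63 ± 0.11, adjusted p = 0.000195). At E15.5, P5 and in adults its log2 differences were -0.03, -0.0005 and 0.07, and the libraries overlapped. KO P9 libraries lay below those of both genotypes at P5 and above those of adults. Emcn (ENSMUSG00000054690, chromosome 3, 137341067 to 137432185, plus strand) had 165, 166 and 140.2 CPM in wt at P9 and 202, 178 and 173 in KO, narrowly apart (0.23 ± 0.15, adjusted p = 0.253). In adults Emcn lay the other way, at 238, 236 and 240.1 CPM in wt and 207, 229 and 214 in KO, again apart and not called (-0.13 ± 0.15, adjusted p = 1).

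The junction genes were not called in KO at any stage. Cdh5 (ENSMUSG00000031871, chromosome 8, 104101625 to 104144502, plus strand) was nevertheless apart at P5, with 1160, 1221 and 1140 CPM in wt and 1302, 1462 and 1437 in KO (0.25 ± 0.10, adjusted p = 0.463). At P9 it had 1034, 1022 and 1010 CPM in wt and 1196, 1110 and 1159 in KO (0.18 ± 0.10, adjusted p = 0.191). The DESeq2 test called that difference (0.24, adjusted p = 0.0353), and scaling to the 24 other pan-endothelial genes turned it to -0.06. Only KO mice carried the transgene with its Cdh5 regulatory region, and its part in the Cdh5 values was not tested. Pecam1 (ENSMUSG00000020717, chromosome 11, 106654217 to 106750628, minus strand), which codes for the antigen of the beads, had 1293, 1314 and 1274 CPM in wt at P9 and 1530, 1467 and 1301 in KO, with overlap (0.15 ± 0.11, adjusted p = 0.328). In adults its means were 977 and 967 CPM.

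Of 7 genes of the VE-cadherin complex, 1 rose and 1 fell at P9 in KO, a share close to the 28% of all genes called there. Ptprb, the endothelial phosphatase VE-PTP that binds VE-cadherin, rose from 1221 ± 52.2 to 2107 ± 184 CPM (0.79, adjusted p = 3.2e-06). Ctnnb1, which encodes beta-catenin, the link from VE-cadherin to actin and the effector of Wnt signalling, fell from 1703 ± 46.0 to 1190 ± 38.7 CPM (-0.52, adjusted p = 0.000306). Ctnnd1, p120-catenin, had 42.8 ± 3.21 CPM in wt and 51.3 ± 3.43 in KO (0.26, adjusted p = 0.0981).

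Ramp2 (ENSMUSG00000001240, chromosome 11, 101246028 to 101259546, plus strand) had 757, 721 and 638 CPM in wt at P9 and 789, 1008 and 668 in KO, with overlap (0.22 ± 0.13, adjusted p = 0.216). Of the 6 other genes of the adrenomedullin axis, 4 were higher in KO at P9, where 13.5% of all genes were, and 2 did not pass, Ramp1 and a gene at -1.09. The ligand gene Adm rose from 84.6 ± 6.32 to 251 ± 88.7 CPM (1.57, adjusted p = 2.66e-06) and had also risen at E15.5 (1.00, adjusted p = 0.0189). Ramp3, the alternative partner of the receptor, rose from 1.57 CPM in wt to between 7.48 and 18.5 CPM in the KO libraries (2.93, adjusted p = 3.25e-07). Ackr3, a scavenger receptor that takes up adrenomedullin, rose by 1.03 (adjusted p = 0.000709) and the receptor Calcrl by 0.43 (0.0329). Ramp1 had 4.84 ± 0.74 and 7.22 ± 3.30 CPM (0.55, adjusted p = 0.181).

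Among the 24 other pan-endothelial genes, 9 were higher and 3 lower in KO at P9 (13.5% and 14.6% of all genes), and the largest rises by adjusted p were Robo4 (1.04, 3.22e-07), S1pr1 (1.23, 1.07e-06) and Ptprb. Vwf was the only one of them called at E15.5 (0.67, adjusted p = 0.0263). The median of the 24 at P9 was 0.16, against 0.23 for the 10 genes and 0.02 for all genes. In adults edgeR called 0 of the 10; at an unadjusted p under 0.05 Clec14a alone of the 10 passed, and DESeq2 and robust limma-trend called 0 of the 10. Without the filter on low counts Clec14a was called in adults (0.59, adjusted p = 0.00154).

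The difference in the KO effect between stages was tested directly. Over the 4 stages an edgeR F test called 3 of the 10 genes, where 13.5% of all genes were called: Clec14a (adjusted p = 2.76e-05), Cd93 (0.00215) and Cd34 (0.00973). Between P5 and P9 the dose and day of tamoxifen were the same, but the time since tamoxifen and the dissociation kit differed. For that step 3 of 10 were called, 1 higher and 2 lower, and 15.7% of all genes, 7.26% higher and 8.44% lower. The effect on Clec14a grew by 1.39 ± 0.21 (adjusted p = 6.75e-05), that on Cd34 fell by 0.63 ± 0.16 (0.00953) and that on Cd93 by 0.62 ± 0.14 (0.00336). From P9 to adult 4 of 10 were called against 13.2% of all genes (6.72% higher and 6.5% lower): Clec14a (-1.56 ± 0.21, adjusted p = 1.86e-05), Cd34 (0.70 ± 0.16, 0.00472), Cd93 (0.56 ± 0.14, 0.00794) and Erg (-0.54 ± 0.16, 0.0287).

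For Clec14a, Cd34 and Cd93 these differences passed with each library left out. The Erg difference did not pass without wt P9 replicate 3 (-0.49, adjusted p = 0.08), KO P9 replicate 1 (-0.45, 0.098), wt adult replicate 1 (-0.43, 0.103), KO adult replicate 1 (-0.51, 0.0695) or KO adult replicate 2 (-0.55, 0.0543), nor with scaling to the 24 other pan-endothelial genes (-0.33, 0.137). For Egfl7 neither difference passed: 0.60 ± 0.24 from P5 to P9 (adjusted p = 0.0893) and -0.64 ± 0.24 from P9 to adult (0.0803). Whether they pass depends on the setting: the DESeq2 test called both (adjusted p = 0.0328 and 0.0272), as did edgeR without the filter on low counts (0.00758 and 0.00425, with 0.00403 in the F test), and edgeR with DESeq2 size factors called the latter (0.0489). The comparisons share the P9 libraries, so they are not independent.

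Markers of other cells moved with the genotype at P9 and at E15.5. At P9 pericyte markers fell in KO, 5 of 8, from a sum of 2866 to 3912 CPM to 756 to 1838, and smooth muscle markers, 4 of the 5 tested, from 148 to 201 CPM to 35.7 to 79.0. Of 6 fibroblast markers 5 fell and 1 rose, with a median of -1.26, and their sum went from 333 to 440 CPM to 197 to 284. Of the 4 markers of other leukocytes tested 2 fell, of 7 microglial markers 1 rose and 1 fell, of 6 neural progenitor markers 1 fell, and of 4 lymphatic endothelial markers 1 rose. The neural progenitor sum went from 664.5 to 688.5 CPM in wt to 372.3 to 423.9 in KO. The microglial sum went from 53.52 to 62.51 CPM to 39.18 to 42.29. Of 7 astrocyte markers 5 rose, and the sum went from 541 to 619 CPM to 848 to 1269. At E15.5, 5 of 6 red cell markers fell in KO, from a sum of 2569 to 3457 CPM to 525 to 822, and 3 of 6 platelet and megakaryocyte markers, from 53.2 to 69.5 CPM to 35.3 to 37.5. At P9 Ly6g, of the leukocyte list, was at 0 in all libraries of both genotypes. At E15.5 Cnn1, of the smooth muscle list, Mog and Mobp, of the oligodendrocyte list, and Ly6g were at 0 in all KO libraries. Cd3e, of the leukocyte list, was at 0 in all wt libraries at E15.5. The part of these other cells in the differences of the 10 genes was not tested.

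Over the 8 group means the 10 genes varied to very different extents. Clec14a spanned 4.07 on the log2 scale between its highest and lowest group, Egfl7 2.94 and Erg 2.33. Cdh5 spanned the least of the 10, 1.46, where the median was 1.6 over all genes tested and 1.24 over the 4087 with a mean of 1000 counts or more. Likeness of pattern was measured as the root mean square difference in log2 CPM over the 8 group means after centring each gene, among 12265 genes, and is given as a description. The closest pair within the set was Fli1 and Ramp2 (0.10), followed by Erg and Fli1 (0.18). Outside the set Erg was nearest to Grap (0.06), Galnt18 (0.08) and Esam (0.09), an endothelial adhesion molecule, and Cd93 to Kdr (0.10), the main VEGF receptor, Itgb1 (0.10) and Hspg2 (0.11). Fli1 lay near Tmem88 (0.05) and Foxc1 (0.07), Egfl7 near Gpr4 (0.11), Ucp2 (0.13) and Tbx3 (0.15), and Cdh5 near Snx9 (0.07). Clec14a had no near match: its closest genes were Cebpd (0.24), Il1r1 (0.25) and Slc16a6 (0.26). The points share libraries and scaling, so no test is attached.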

How the data were processed

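Polyadenylated RNA was sequenced as strand-specific libraries on an Ion Proton instrument, per the labels' protocols. The authors deposited, for every library and gene (build mm10), unnormalised counts from 1 strand, an FPKM column and a TPM column. The deposited FPKM and TPM were recomputed from the counts and the deposited lengths and matched. The submitters' processing notes name STAR 2.5.3a, SAMtools 1.5, Trim Galore 0.4.1 and FastQC, giving no roles. The annotation release is not given in the sources used here.

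A gene was tested if some group averaged 10 counts or more, which left 17159 genes. TMM factors ran from 0.861 to 1.14. A single edgeR 4.0.16 quasi-likelihood model (R 4.3.3) covered the 24 libraries, fitting each group's mean and leaving 16 residual degrees of freedom. All p-values are two-sided, with Benjamini-Hochberg adjustment over the genes tested; called means an adjusted p under 0.05. Log2 fold changes come from that model, and ± is the standard error unless SD is written. Library totals and the counting floor are in the report; the pipeline was tested on simulated data.

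The members, gene lists and tests were chosen with earlier results of these data known, so agreement with those results is no independent support. The naming rule took all members, Sox17, up to 3 called genes of each list with the smallest adjusted p per contrast, direct partners of members, and the 3 nearest genes by pattern. Alternatives were DESeq2 1.42.0 size factors, upper-quartile factors, no filter, the DESeq2 test, robust limma-trend (limma 3.58.1), fits of 6 libraries, a replicate block and leaving out each library. Added once the data had been seen were a scaling to 24 other pan-endothelial genes and a fit without the libraries numbered 3 of both E15.5 groups. Replicates of a group varied more than counting error allows (chi-square divided by its degrees of freedom, 4.98 to 58.1).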

Additional observations from a re-analysis of the deposited data

Results flagged for a closer look

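The results here were taken up because the KO effect differed between stages by a test of the difference itself (edgeR quasi-likelihood, adjusted over all genes tested). The KO effect on Clec14a was 1.39 larger at P9 than at P5 on the log2 scale, and it was smaller in adults than at P9 (adult minus P9, -1.56). For Cd34 the P9 effect minus the P5 effect was -0.63 and the adult effect minus the P9 effect 0.70. For Cd93 the same differences were -0.62 and 0.56. For Erg the adult effect minus the P9 effect was -0.54; it did not pass with scaling to the 24 other pan-endothelial genes (-0.33, adjusted p = 0.137) or without any of 5 single libraries (adjusted p = 0.0543 to 0.103). The F test over the 4 stages gave adjusted p = 2.76e-05 for Clec14a, 0.00215 for Cd93 and 0.00973 for Cd34.

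All of these contrasts use the P9 libraries, where pericyte (5 of 8), smooth muscle (4 of 5 tested) and fibroblast markers (5 of 6, with 1 higher) were lower and astrocyte markers (5 of 7) higher in KO. Whether those cells take part in the differences was not tested.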

How the results depend on the processing

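Of 1073 values of single genes under the alternatives, 1011 kept their direction and their side of the threshold, 22 kept their direction but lost the call, 15 kept it and gained the call, and 25 changed sign, some of these with a change of call as well. The cause of these changes was not tested. The values compared belong to 65 single-gene results given in the text, not to every gene in every comparison. Among them, all changes of sign but those of Egfl7 between P9 and adult in wt came with scaling to the 24 other pan-endothelial genes. Outside them signs changed as well. In KO at E15.5, 8 of the 10 genes were positive in the main fit and 4 without KO replicate 1.

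Scaled to the 24 other pan-endothelial genes, wt P5 against E15.5 gave log2 values of -0.37 for Cdh5, -0.28 for Pecam1, -0.11 for Cd34, -0.15 for Fli1, -0.43 for Emcn, -0.0195 for Cd93 and -0.29 for Ramp2, and 4 genes of the set were called in place of 10. Wt adult against E15.5 gave -0.76 for Cdh5, -0.11 for Pecam1, -0.11 for Clec14a, -0.34 for Cd34, -0.0174 for Erg, -0.45 for Fli1 and -0.64 for Ramp2. KO against wt at P9 gave -0.0586 for Cdh5, -0.0911 for Pecam1, -0.0036 for Emcn and -0.0218 for Ramp2, none of them called under either scaling. Egfl7 between wt P9 and adult was 0.40 with this scaling, 0.0635 with DESeq2 size factors and in the DESeq2 test, and 0.0085 with upper-quartile factors; over left-out libraries it ranged from -0.088 to 0.0642. The scaling called 490 genes between wt P5 and P9, against 879. It split the calls as 640 higher and 13799 lower for wt P5 against E15.5 (6213 and 5220 with TMM), 7777 and 2659 for wt adult against P9 (5293 and 5192), 2129 and 12037 for wt adult against E15.5 (6046 and 5891), 998 and 4372 for KO at P9 (2312 and 2497), and 65 and 38 for KO at E15.5 (72 and 22). The change of the KO effect from P5 to P9 split as 1246 and 1448 with TMM, 1579 and 1175 with DESeq2 size factors and 460 and 2606 with the endothelial scaling. That from P9 to adult split as 1153 and 1115, 909 and 1376, and 1796 and 512.

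Without the filter on low counts 212 genes were called in KO at E15.5, 322 at P5, 69 in adults and 1579 between wt P5 and P9, and 1 gene of the set in adults. The DESeq2 test called 148, 162 and 36 genes in KO at E15.5, P5 and adult, and 5 of the set in the F test over stages. Fits of 6 libraries called 16, 198 and 40 genes at these stages and 2072 between wt P5 and P9, and 0 of the set at E15.5. Without both E15.5 libraries numbered 3 there were 53 genes and 0 of the set in KO at E15.5.

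With 1 library left out, genes called ranged from 54 to 93 in KO at E15.5, from 36 to 82 at P5, from 4 to 14 in adults and from 304 to 628 between wt P5 and P9, and genes of the set from 0 to 1 at E15.5 and at P5 and from 4 to 6 at P9. Counts moved by over 1.5 times at E15.5 without wt 1 (55), KO 1 (54) or KO 2 (61), at P5 without wt 1 (36), wt 3 (43), KO 1 (38) or KO 3 (44), in adults without wt 1 (6), wt 2 (4), wt 3 (7), KO 1 (9) or KO 2 (8), and between wt P5 and P9 without P5 wt 1 (546) or 3 (364) or P9 wt 1 (438), 2 (304) or 3 (430). The same replicate numbers occur in each group. The deviations of same-numbered wt and KO libraries from their group means correlated at -0.08 to 0.49, and 2 of 12 pairs were above 0.1. Both were at E15.5, at 0.368 for the libraries numbered 2 and 0.486 for those numbered 3. Pairs with different numbers at E15.5 went from -0.472 to 0.252. A pairing by number is thus not excluded at E15.5 and was not seen at the other stages. A replicate block left all 65 single-gene calls as they were and called 83 genes in KO at E15.5, 119 at P5 and 16 in adults. At these depths counting error is small beside the spread between replicates, which limits the precision.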
